A study of Homo sapiens with 12 samples.

Results

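The response of SW480 cells to GLY alone was read from 6 of the 12 libraries of the series: 3 treated with GLY and 3 untreated. Every gene in the deposited table was taken in, which gave 3699 listed genes, of which 3429 passed the filter on low counts and were tested. SW480 is an established line from a human colorectal adenocarcinoma. Flasks of every group were kept for 12 h in medium with 10% serum, and fresh medium with or without an agent followed for another 12 h by the protocol. The abbreviation GLY is kept as the labels spell it. The labels of the GLY libraries carry 12, 13 and 14 h for replicates 1, 2 and 3, while untreated cells had no agent added. The other 6 libraries, GLY_PUE (both agents) and PUE, entered the fit for the estimate of spread and served as a second set of cells with and without GLY. The labels conflict in part: the free-text descriptions count the line number up from SW480 over the samples, and the extraction text speaks of retinas, while the cell line field gives SW480 for every sample and was followed. SW480 is 1 line, and whether the replicates were separate cultures is not stated, so every p-value here reflects only how these libraries varied, which may be technical.

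SW480 cells carry a truncated APC protein, and beta-catenin therefore drives Wnt target genes without an outside signal. Wnt targets include negative feedback inhibitors and markers of intestinal stem cells. Mammalian cells under proteotoxic or oxidative stress switch on separate sets of genes: chaperones of the endoplasmic reticulum, cytosolic heat shock proteins, amino acid and redox genes downstream of ATF4 and NRF2, and short-lived early response genes. Keratins of the KRT6, KRT16 and KRT17 group and the small proline-rich proteins belong to stratified epithelia and are known there for their induction by injury.

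The table is a selected one. Every listed gene reaches a log2 ratio of 1 in size with a q-value no higher than 0.001 in some comparison of the authors, and the authors' deposited table marks 2878 of them for GLY against untreated, 673 higher and 2205 lower. Counts of genes called below therefore describe this list and are not independent evidence of a response. Library totals recovered from the table ran from 19.7 to 21.4 M reads, and 3 counts, the limit that a count of 0 allows, came to at most 0.152 CPM (counts scaled to the library total), which covers counting error only. Listed genes held 14.8% ± 0.744 of reads in GLY libraries and 14.2% ± 0.524 in untreated libraries (SD, n = 3 each). In bulk samples, fewer cells of a kind and less RNA per cell cannot be told apart.

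GLY replicate 1 stood apart from the other GLY libraries, and its deviation followed base composition. Over 1648 well-covered genes (average log2 CPM 3 or more) of known transcript GC content, its deviation from the GLY mean had a Pearson r of 0.79 with GC. GLY replicates 2 and 3 had an r of −0.57 and −0.71 about the same mean, and untreated replicates 1, 2 and 3 had 0.13, 0.28 and −0.22. These are correlations across genes within a library, and genes are not independent replicates. Among the genes lowest in GC, with a median of 37.1%, GLY replicate 1 lay 1.34 log2 units under the GLY mean, and replicates 2 and 3 lay 0.56 and 0.74 units over it. Untreated replicate 3 also differed from untreated replicates 1 and 2, with a chi-square per gene of 74.5 against each of them where those 2 libraries gave 2.63. Results are therefore given with and without GLY replicate 1, and without untreated replicate 3 where that library decides a value.

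**Figure D1:**
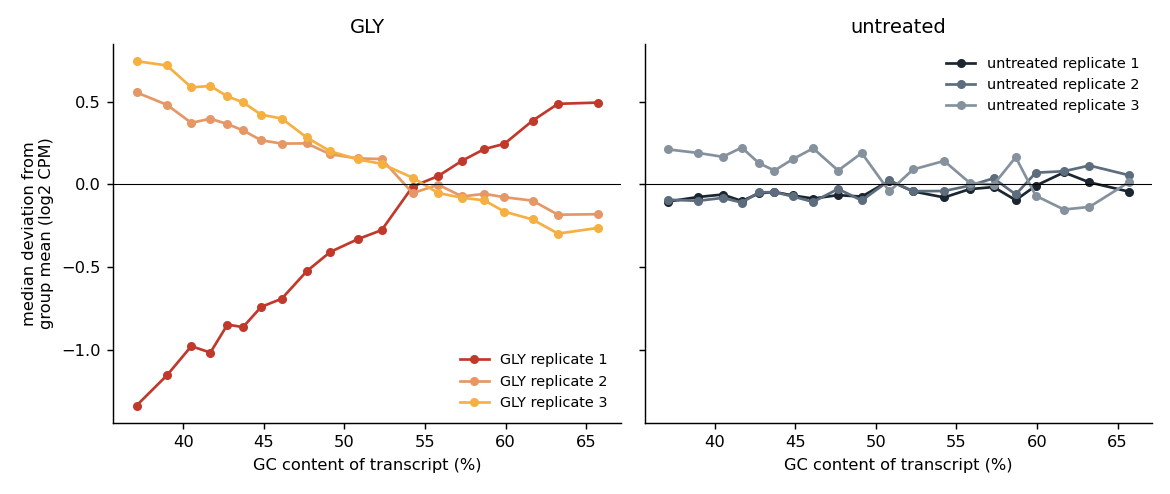
Deviation of each library from the mean of its group (y axis, median in log2 CPM over a bin of 82 or 83 genes) against transcript GC content (x axis, %), for 3 GLY libraries (left) and 3 untreated libraries (right). The line of GLY replicate 1 climbs with GC content while those of GLY replicates 2 and 3 descend, and the untreated lines stay closer to 0.

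Of the 3429 genes tested, 2890 were called at an edgeR adjusted p under 0.05 (84.3%), of which 674 were higher with GLY (19.7%) and 2216 lower (64.6%). The median log2 fold change of all tested genes was −1.15. Among called genes the median was 1.43 for those higher and −1.40 for those lower, and 162 genes were higher and 462 lower by at least 2 log2 units. The values of GLY and untreated libraries did not overlap in 2856 genes (83.3%), of which 609 were higher (17.8%) and 2247 lower (65.5%). Genes called higher took between 10.0% and 10.8% of a library's reads in GLY cells, against 3.18% to 4.48% in untreated cells. Genes called lower took between 2.76% and 3.97% in GLY cells, against 8.79% to 11.1% in untreated cells.

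Without GLY replicate 1, 2853 of 3517 genes were called (81.1%), 688 higher (19.6%) and 2165 lower (61.6%). Of the genes called with all libraries, 621 higher and 2047 lower ones kept their call without it, 53 and 169 lost it, and 0 were called in the opposite direction. Of the genes tested both ways, another 150 were called only without it. The split by direction rests on scaling by library totals. TMM, which centres the genes of this selected table, raised the median log2 fold change by 1.13 and gave 1158 calls (33.8%), 812 higher (23.7%) and 346 lower (10.1%). Genes near −1 on the log2 scale are thus lower relative to library totals but not relative to the middle of the table, and TMM counts are given beside the lists below.

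**Figure D2:**
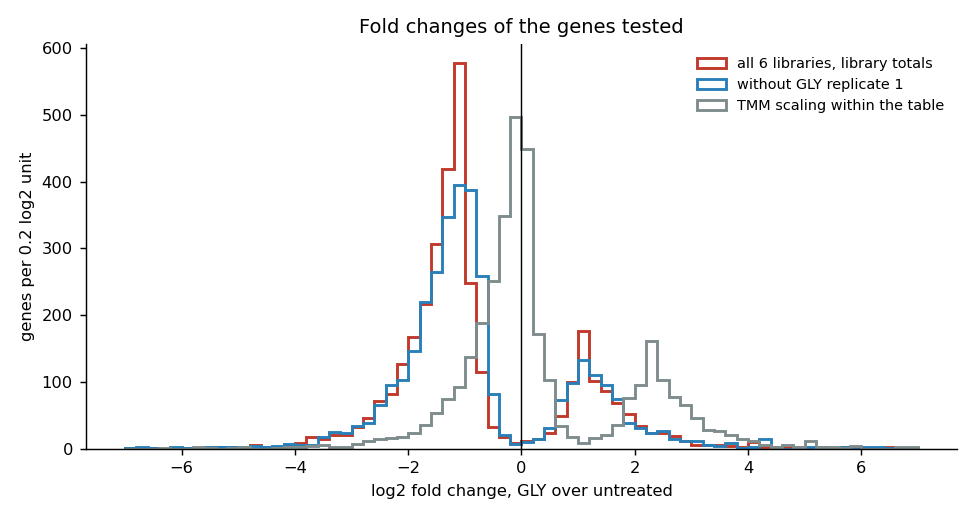
Number of genes (y axis, per 0.2 log2 unit) by log2 fold change of GLY over untreated (x axis) with all 6 libraries and library totals, without GLY replicate 1, and under TMM scaling. With library totals the larger peak lies near the median of −1.15, and TMM moves that peak to about 0 (median −0.02) and the smaller peak further to the right.

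Keratin and cornified envelope genes were among the largest increases. The 15 largest increases and 15 largest decreases were picked from genes with groups apart and a call kept without GLY replicate 1. Both traits are therefore given for them as description only. KRT16, a keratin of stressed stratified epithelium, stood at 32.6, 16.9 and 22.9 CPM in GLY replicates 1, 2 and 3, against 0.593, 0.478 and 0.493 CPM in untreated replicates 1, 2 and 3. GLY replicate 1 was the highest library, and the lowest GLY value was still far above every untreated one (log2 fold change 5.50, SE 0.38, edgeR adjusted p = 8.29e-06). SPRR2D, a small proline-rich protein of the cornified envelope, had 66.7, 38.9 and 85.3 CPM in GLY replicates 1, 2 and 3, against 6.35, 5.52 and 2.61 CPM in untreated replicates 1, 2 and 3. Every GLY library was above every untreated one (log2 fold change 3.72, SE 0.57, edgeR adjusted p = 0.000254). S100A2, a calcium-binding protein of basal epithelial cells, had 446, 251 and 241 CPM in GLY replicates 1, 2 and 3, against 96.4, 86.1 and 61.4 CPM in untreated replicates 1, 2 and 3, again with no overlap (log2 fold change 1.94). SPRR1B, of the same envelope, is known here only from few counts: 71.97 summed over the GLY libraries and 2 over the untreated ones, a ratio of 34.2 with a 95% counting interval from 9.13 to 288. Among keratins, 6 of 10 tested members were called higher and 2 lower, with a median log2 fold change of 1.43. The background was 19.7% higher and 64.6% lower, or 23.7% and 10.1% under TMM. There were 6 keratins higher and 1 lower without GLY replicate 1, and 7 higher and 0 lower under TMM. KRT6A (2.14) and KRT81 (2.15) were higher, but both have near-identical copies between which reads may have been split, and KRT6B, at −2.29, and KRT83, at −1.56, were the members called lower. The lower calls numbered 0 without GLY replicate 3 or untreated replicate 2, and 1 without any other single library. All 5 tested cornified envelope genes were higher, as they were without GLY replicate 1 and under TMM.

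**Figure D3:**
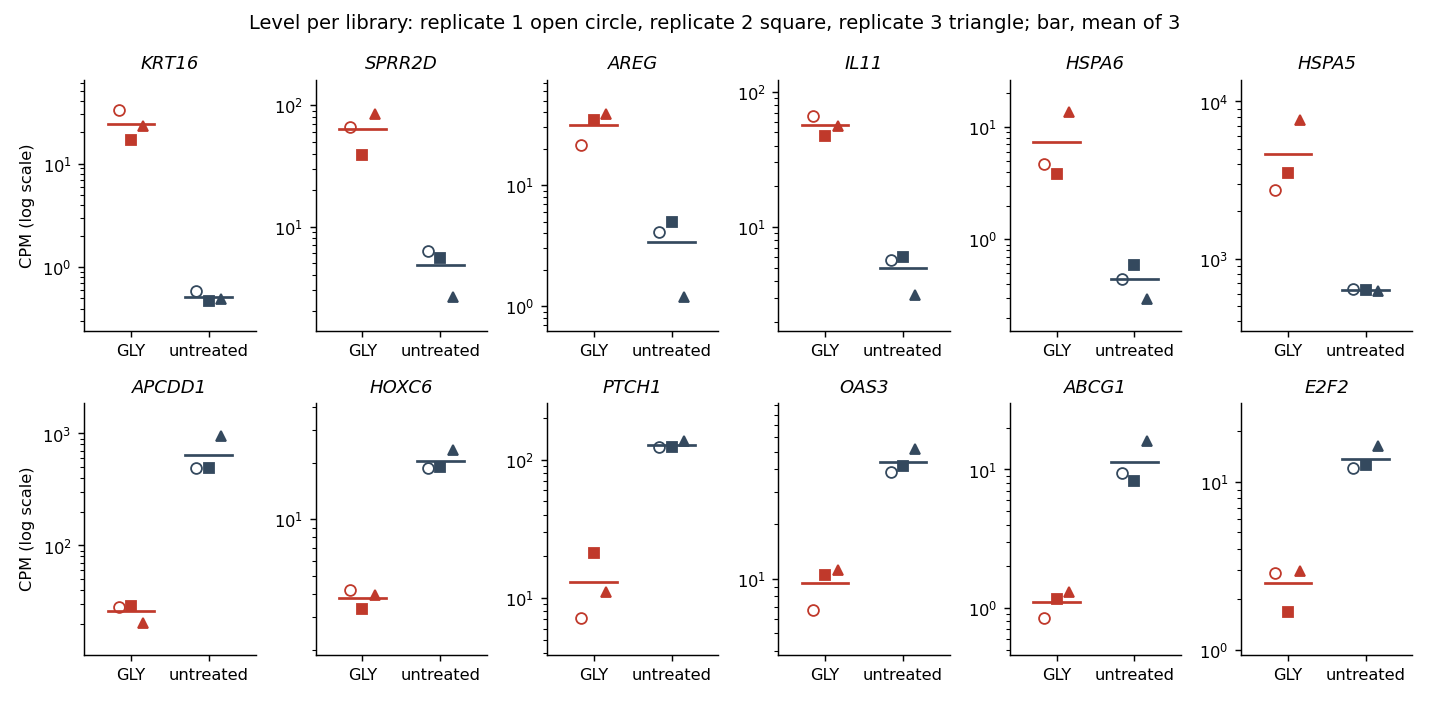
Level of 12 genes (y axis, CPM on a log scale) in the 3 GLY libraries (left in each panel) and the 3 untreated libraries (right), with symbols for replicates 1, 2 and 3 and a bar at the mean. The 6 genes of the upper row lie higher in every GLY library and the 6 of the lower row lie lower in every GLY library than in any untreated library.

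Chaperones rose in both compartments. Over all tested genes 19.7% were called higher and 64.6% lower, or 23.7% and 10.1% under TMM. HSPA5, the main chaperone of the endoplasmic reticulum, stood at 2743, 3512 and 7588 CPM in GLY replicates 1, 2 and 3, against 643, 636 and 627 CPM in untreated replicates 1, 2 and 3. GLY replicate 3 was the highest library and the untreated replicates hardly differed (log2 fold change 2.86, SE 0.37, edgeR adjusted p = 9.03e-05). Of the unfolded protein response genes, 11 of 13 tested members were called higher and 0 lower, with a median log2 fold change of 1.42. The counts were 12 higher and 0 lower without GLY replicate 1, and 13 higher and 0 lower under TMM. MANF, a secreted protein of the endoplasmic reticulum, averaged 188 ± 60.6 CPM in GLY libraries and 56.1 ± 3 CPM in untreated libraries (SD, n = 3 each; log2 fold change 1.74), and HYOU1, a chaperone of the same compartment, had a log2 fold change of 1.66. Of the cytosolic heat shock genes all 9 tested members were higher, with a median of 2.16, and all 9 were also higher without GLY replicate 1 and under TMM. HSPA6, the strictly inducible member of the HSP70 family, had 4.68, 3.79 and 13.6 CPM in GLY replicates 1, 2 and 3, against 0.445, 0.597 and 0.296 CPM in untreated replicates 1, 2 and 3. GLY replicate 3 carried the highest value here too, and without it the log2 fold change was 3.23 instead of 4.02. CRYAB, a small heat shock protein, likewise stood at 3.96, and at 3.32 without GLY replicate 3. HSPA1A (2.88) shares nearly all of its sequence with HSPA1B, so the level of either is uncertain. In absolute terms HSP90AA1, a cytosolic chaperone chosen after its values were seen, had means of 7843 CPM in GLY and 3833 CPM in untreated libraries, a difference of 4010 CPM (log2 fold change 1.03, SE 0.21, edgeR adjusted p = 0.00131).

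The promoter of HSPA5 is shown because it holds the endoplasmic reticulum stress element, searched on both strands as CCAAT and CCACG with 9 bases between them, the site that ATF6 is known to use with the factor NF-Y. These are the 250 bases before the RefSeq start (GRCh38.p14, chr9:125241344-125241593, minus strand), read 5′ to 3′, with the matched element in capitals.
HSPA5 promoter: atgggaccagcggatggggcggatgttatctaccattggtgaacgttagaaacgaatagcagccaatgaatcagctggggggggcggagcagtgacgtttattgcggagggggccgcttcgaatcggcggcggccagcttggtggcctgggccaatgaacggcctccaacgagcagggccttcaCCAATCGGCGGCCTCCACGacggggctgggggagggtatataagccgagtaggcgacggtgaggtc
Of 12 unfolded protein response genes with a promoter in the RefSeq table, 3 held this element on either strand, namely HSPA5, HSP90B1 and XBP1. Of all 27305 genes with a RefSeq promoter, 25 held it (0.0916%), as did 4 of 503 genes called higher (0.795%), 0 of 1720 called lower and 3 of 380 not called (0.789%). The windows searched run from 250 bases before to 50 after each listed start, a gene counts where any of its starts holds the letters, and 2603 of the 3429 tested genes matched an entry. A match of letters is a description and not a binding site.

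Genes of amino acid and redox stress were higher as well, where all tested genes had 19.7% higher and 64.6% lower (23.7% and 10.1% under TMM). Among ATF4 targets, 13 of 16 tested members were called higher and 2 lower, with a median log2 fold change of 1.14. The counts were 14 higher and 2 lower without GLY replicate 1, and 14 higher and 0 lower under TMM. SESN2, an inhibitor of mTORC1 signalling, had 356, 289 and 334 CPM in GLY replicates 1, 2 and 3, against 80.9, 79.4 and 36.4 CPM in untreated replicates 1, 2 and 3. TRIB3, a pseudokinase induced by ATF4, averaged 761 ± 162 CPM in GLY libraries and 203 ± 34 CPM in untreated libraries (SD, n = 3 each), and in neither gene did the groups overlap. PPP1R15A, which brings a phosphatase to eIF2 and was chosen after its values were seen, was at 1.84. Of the NRF2 targets, 6 of 9 tested members were called higher and 0 lower, with a median log2 fold change of 1.12. The counts were 6 higher and 0 lower without GLY replicate 1, and 9 higher and 0 lower under TMM. Only 4 were called higher without untreated replicate 3. SRXN1, which repairs oxidised peroxiredoxins, had 369, 365 and 419 CPM in GLY replicates 1, 2 and 3, against 126, 131 and 114 CPM in untreated replicates 1, 2 and 3. HMOX1, the enzyme that breaks down haem, had a log2 fold change of 2.67. TXNRD1, thioredoxin reductase, was higher on average (1.12), yet GLY replicate 1 lay within the untreated range at 313 CPM, and without that library the value was 1.45. FTH1, the ferritin heavy chain, was chosen after its values were seen and had the largest gain in level of the tested genes, with means of 14584 CPM in GLY and 6888 CPM in untreated libraries. Its call did not survive leaving out GLY replicate 1 (log2 fold change 1.08 with it and 0.76 without it, adjusted p = 0.101) or untreated replicate 3 (0.80), and processed copies of FTH1 in the genome make its count uncertain. Of metallothionein and zinc genes, 5 of 7 tested members were called higher and 1 lower, with a median log2 fold change of 1.43. The counts were 5 higher and 2 lower without GLY replicate 1, and 5 higher and 0 lower under TMM. MT2A (1.83), MT1X (1.73) and MT1E (1.43) were higher, but their near-identical sequences leave the split between them uncertain. Of autophagy and lysosome genes, 4 of 4 tested members were called higher and 0 lower, with a median log2 fold change of 1.29. The counts were 4 higher and 0 lower without GLY replicate 1, and 4 higher and 0 lower under TMM. MAP1LC3B, the lipid-anchored protein of autophagosomes, was among them (1.39).

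Ligands of the EGF receptor and a set of cytokine genes rose. The shares over all tested genes were 19.7% higher and 64.6% lower, or 23.7% and 10.1% under TMM. AREG, amphiregulin, stood at 21.4, 34.5 and 39.1 CPM in GLY replicates 1, 2 and 3, against 4.1, 4.98 and 1.18 CPM in untreated replicates 1, 2 and 3. HBEGF, heparin-binding EGF-like growth factor, had 69.3, 73.4 and 72.4 CPM in GLY replicates 1, 2 and 3, against 11.2, 11 and 4.93 CPM in untreated replicates 1, 2 and 3. The GLY values of HBEGF are close to one another and exceed every untreated value (log2 fold change 2.99, SE 0.38, edgeR adjusted p = 8.4e-05). ERBB3, a receptor partner in that family, was lower (12.4 ± 3.43 CPM in GLY libraries and 50.3 ± 2.68 CPM in untreated libraries; SD, n = 3 each; log2 fold change −2.02). The list of EGFR ligands and feedback genes moved both ways: 5 of 14 tested members were called higher and 7 lower, with a median log2 fold change of −0.90. The counts were 6 higher and 5 lower without GLY replicate 1, and 6 higher and 1 lower under TMM. IL11, a cytokine of the interleukin 6 family, had 65.8, 47.2 and 56.2 CPM in GLY replicates 1, 2 and 3, against 5.7, 6.07 and 3.17 CPM in untreated replicates 1, 2 and 3. No library of one group came near the other (log2 fold change 3.50, SE 0.31, edgeR adjusted p = 1.57e-05). Of the inflammatory list, 9 of 11 tested members were called higher and 1 lower, with a median log2 fold change of 1.11. The counts were 8 higher and 1 lower without GLY replicate 1, and 9 higher and 0 lower under TMM. The receptor gene IL1R1 was at 3.32, and the adhesion molecule ICAM1 was the member called lower (−1.29, a call lost under TMM at −0.11). Early response genes were mostly higher: 10 of 14 tested members were called higher and 2 lower, with a median log2 fold change of 1.45. The counts were 10 higher and 2 lower without GLY replicate 1, and 11 higher and 0 lower under TMM. Without untreated replicate 1 or 2, 1 of them was called lower, and without untreated replicate 3, 8 were called higher. DUSP5, a nuclear MAP kinase phosphatase, had 328, 344 and 319.6 CPM in GLY replicates 1, 2 and 3, against 81.8, 79.3 and 37.3 CPM in untreated replicates 1, 2 and 3. FOSL1, a subunit of the AP-1 factor and chosen after its values were seen, averaged 1269 ± 449.9 CPM in GLY libraries and 337 ± 189 CPM in untreated libraries (SD, n = 3 each; log2 fold change 1.91). CREB5, a related leucine zipper factor, was at 4.78, and at 4.08 without GLY replicate 3.

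Among 11 motifs searched, the AP-1 site had the widest gap in percentage points between genes called higher and lower, so the promoter of IL11 is shown with it. The letters searched were TGACTCA on both strands. The sequence is the 250 bases before the RefSeq start (GRCh38.p14, chr19:55370464-55370713, minus strand), with the match in capitals.
IL11 promoter: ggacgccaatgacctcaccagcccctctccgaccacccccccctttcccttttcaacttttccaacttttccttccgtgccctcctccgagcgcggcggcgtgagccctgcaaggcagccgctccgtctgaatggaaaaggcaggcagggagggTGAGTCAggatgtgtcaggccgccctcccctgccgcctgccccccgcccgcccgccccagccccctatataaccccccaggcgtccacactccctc
The site was found in the windows of 74 of 503 genes called higher (14.7%) and of 70 of 1720 called lower (4.07%), against 1651 of 27305 genes in the RefSeq table (6.05%). Counted per window, which evens out genes with several starts, the shares were 10.7%, 2.77% and 4.95%. Among 10 inflammatory genes with an entry, CXCL8, IL11, IL23A and IL6R held it. No test was made of these shares, and the 11 motifs were chosen with the results known.

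Genes of the cell surface and matrix changed in both directions, against 19.7% higher and 64.6% lower over all tested genes (23.7% and 10.1% under TMM). MMP14, a membrane-bound matrix protease, averaged 144 ± 13.7 CPM in GLY libraries and 52.5 ± 5.78 CPM in untreated libraries (SD, n = 3 each), and ADAMTS15, a secreted one, was lower (−2.70). The list of matrix proteases and inhibitors split evenly: 6 of 14 tested members were called higher and 6 lower, with a median log2 fold change of 0.94. The counts were 7 higher and 6 lower without GLY replicate 1, and 8 higher and 1 lower under TMM, and the lower calls numbered 3 without untreated replicate 2. MMP1, interstitial collagenase, was chosen after its values were seen and had 118 counts summed over the GLY libraries against 1 over the untreated ones, a ratio of 112 with a 95% counting interval from 19.7 to 4463, and GLY replicate 3 held most of them (4.41 CPM against 0.425 and 0.702 in replicates 1 and 2). Its fitted log2 fold change, 6.36 with all libraries, was 4.66 without GLY replicate 3 and 8.26 without untreated replicate 3. COL4A2, a basement membrane collagen, was lower (−1.53, and −0.33 under TMM, where the call is lost). HAS2, which makes hyaluronan, stood at 0.236, 0.234 and 0.985 CPM in GLY replicates 1, 2 and 3, against 7.95, 8.41 and 20.8 CPM in untreated replicates 1, 2 and 3, with a log2 fold change of −4.66 (−5.68 without GLY replicate 3 and −4.06 without untreated replicate 3). SNAI2, a repressor of epithelial genes, was higher at 32.2, 106 and 72.4 CPM in GLY replicates 1, 2 and 3, against 13, 15 and 3.7 CPM in untreated replicates 1, 2 and 3. CLDN4, a tight junction claudin, was also higher (1.30), and CELSR2, an atypical cadherin, was lower (−2.22).

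Several Wnt feedback inhibitors were among the largest decreases, and DKK1 was higher. APCDD1, a membrane inhibitor of Wnt receptors, had 28.5, 28.8 and 20.5 CPM in GLY replicates 1, 2 and 3, against 492, 494 and 956 CPM in untreated replicates 1, 2 and 3. The GLY libraries were alike and far below the untreated ones (log2 fold change −4.64, SE 0.37, edgeR adjusted p = 1.05e-05). NKD1, an antagonist of Dishevelled, had 28.3, 33.7 and 29.3 CPM in GLY replicates 1, 2 and 3, against 376, 377 and 779 CPM in untreated replicates 1, 2 and 3. Untreated replicate 3 was the highest library for both genes, and without it the log2 fold changes were −4.25 for APCDD1 and −3.63 for NKD1. DKK4, a secreted Wnt inhibitor, was at −5.46, and at −4.33 without untreated replicate 3. DKK1, a related inhibitor, was called higher at 1.47, and at 2.57 under TMM. Over all tested genes 19.7% were higher and 64.6% lower, or 23.7% and 10.1% under TMM. Of the Wnt targets, 7 of 32 tested members were called higher and 25 lower, with a median log2 fold change of −1.78. The counts were 7 higher and 24 lower without GLY replicate 1, and 7 higher and 15 lower under TMM. Of the pathway's components, 1 of 16 tested members were called higher and 14 lower, with a median log2 fold change of −1.71. The counts were 1 higher and 14 lower without GLY replicate 1, and 1 higher and 6 lower under TMM. PROX1, a homeobox factor activated by Wnt in colorectal tumours, had a log2 fold change of −4.55. WNT6, a ligand, was at −2.90, WLS, which carries Wnt ligands to the surface, at −2.02 and TLE4, a corepressor, at −2.95. WNT5A, chosen after its values were seen, had 3.92, 21.2 and 21.3 CPM in GLY replicates 1, 2 and 3, against 99.7, 98.8 and 119 CPM in untreated replicates 1, 2 and 3. Of the intestinal stem cell list, 0 of 9 tested members were called higher and 8 lower, with a median log2 fold change of −2.37. The counts were 0 higher and 8 lower without GLY replicate 1, and 0 higher and 6 lower under TMM. ASCL2, a transcription factor of those cells, averaged 14.6 ± 5.52 CPM in GLY libraries and 90.8 ± 13.4 CPM in untreated libraries (SD, n = 3 each). CDX2, which specifies intestinal epithelium, was lower at 18.4, 12.5 and 8.96 CPM in GLY replicates 1, 2 and 3, against 64.6, 67.8 and 84.5 CPM in untreated replicates 1, 2 and 3, and VIL1, a microvillus protein, stood at −1.32 (−0.15 under TMM, where the call is lost).

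Hedgehog and homeobox genes were lower too, while BMP genes were lower about as often as all tested genes. PTCH1, receptor and target of Hedgehog signalling, had 7.18, 21.2 and 11 CPM in GLY replicates 1, 2 and 3, against 124, 122 and 137 CPM in untreated replicates 1, 2 and 3. GLY replicate 2 was the highest GLY library and still far below every untreated one (log2 fold change −3.28, SE 0.38, edgeR adjusted p = 5.24e-05). GLI3, a transcription factor of that pathway, averaged 24 ± 10.4 CPM in GLY libraries and 144 ± 6.1 CPM in untreated libraries, and SMO, its signal transducer, 1.15 ± 0.687 CPM in GLY libraries and 6.89 ± 1.1 CPM in untreated libraries (SD, n = 3 each). SMO was at −2.58, and at −3.19 without GLY replicate 1. Of the Hedgehog list, 0 of 7 tested members were called higher and 7 lower, with a median log2 fold change of −2.58. The counts were 0 higher and 6 lower without GLY replicate 1, and 0 higher and 3 lower under TMM. Of the BMP and TGF-beta list, 3 of 17 tested members were called higher and 11 lower, with a median log2 fold change of −1.08. All tested genes had 19.7% higher and 64.6% lower, or 23.7% and 10.1% under TMM. The counts were 4 higher and 10 lower without GLY replicate 1, and 6 higher and 3 lower under TMM. BMP4, a ligand, had 25.5, 22.8 and 16.6 CPM in GLY replicates 1, 2 and 3, against 118, 122 and 145 CPM in untreated replicates 1, 2 and 3. ID2, an inhibitor of bHLH factors that BMP signals induce, was at −3.12 and the pseudoreceptor BAMBI at −2.28. GREM1, a secreted BMP antagonist chosen after its values were seen, went the other way with 127 counts over the GLY libraries and 2 over the untreated ones (ratio 60.3, 95% counting interval from 16.4 to 503). Its fitted log2 fold change, 5.67 with all libraries, was 5.05 without GLY replicate 3 and 8.37 without untreated replicate 1, the library that held both counts. NOG, another secreted antagonist, at 2.04, and INHBA, an activin subunit, at 2.86, were the other members called higher. Every one of the 21 HOX genes tested was lower, of 32 on the list, with log2 fold changes between −2.90 (HOXA6) and −0.99 (HOXA9) and a median of −1.79, and under TMM HOXA9 turned to 0.14, HOXB6 to 0.019, HOXC10 to 0.053 and HOXC13 to 0.058. Without GLY replicate 1, 20 of them were called lower, and under TMM 8 (10.1% of all tested genes were lower under TMM). HOXC6 stood at 4.17, 3.32 and 3.94 CPM in GLY replicates 1, 2 and 3, against 18.8, 19.1 and 23.7 CPM in untreated replicates 1, 2 and 3. HOXA7 averaged 9.68 ± 1.07 CPM in GLY libraries and 57.5 ± 19.96 CPM in untreated libraries and HOXB13 1.69 ± 0.162 CPM in GLY libraries and 8.16 ± 1.69 CPM in untreated libraries (SD, n = 3 each). In all of these the groups were separate. Among SOX and FOX factors, 1 of 14 tested members were called higher and 13 lower, with a median log2 fold change of −1.70 (19.7% and 64.6% over all tested genes). The counts were 1 higher and 12 lower without GLY replicate 1, and 1 higher and 4 lower under TMM. The higher call was lost without GLY replicate 2 or untreated replicate 1. SOX4, a factor of undifferentiated cells, was at −2.39 and FOXQ1, a forkhead factor, at −2.09.

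Interferon-stimulated genes were lower in GLY cells. OAS2, a sensor enzyme for double-stranded RNA, had 1.56, 1.78 and 1.55 CPM in GLY replicates 1, 2 and 3, against 15.3, 15.4 and 19.4 CPM in untreated replicates 1, 2 and 3. The 3 GLY values are nearly equal (log2 fold change −3.35, SE 0.25, edgeR adjusted p = 8.29e-06). OAS3, of the same family, stood at 6.75, 10.5 and 11.1 CPM in GLY replicates 1, 2 and 3, against 38.5, 41.7 and 52 CPM in untreated replicates 1, 2 and 3. Of the interferon list, 1 of 18 tested members were called higher and 14 lower, with a median log2 fold change of −1.63, against 64.6% of all tested genes lower, or 10.1% under TMM. The counts were 1 higher and 14 lower without GLY replicate 1, and 1 higher and 5 lower under TMM. ISG20, an exonuclease, was the member called higher, at 1.24. CMPK2, a mitochondrial nucleotide kinase, had 2 counts over the GLY libraries and 56 over the untreated ones, and the untreated level exceeded the GLY level 29.5-fold with a 95% counting interval from 7.79 to 249.5. IFIT3, chosen after its values were seen, averaged 1.91 ± 0.348 CPM in GLY libraries and 5.61 ± 0.64 CPM in untreated libraries (SD, n = 3 each; log2 fold change −1.55, a call lost under TMM). The promoter of OAS3 is shown because 11 of 15 interferon genes with an entry hold a core of the interferon-stimulated response element, searched on both strands as a pair of TTTC with 2 bases between them. It was present in 4.38% of all 27305 genes, in 4.77% of genes called higher and in 4.59% of genes called lower, so it does not set the lower genes apart as a whole. These are the 250 bases before the start (GRCh38.p14, chr12:112938224-112938473, plus strand), with both matches in capitals.
OAS3 promoter: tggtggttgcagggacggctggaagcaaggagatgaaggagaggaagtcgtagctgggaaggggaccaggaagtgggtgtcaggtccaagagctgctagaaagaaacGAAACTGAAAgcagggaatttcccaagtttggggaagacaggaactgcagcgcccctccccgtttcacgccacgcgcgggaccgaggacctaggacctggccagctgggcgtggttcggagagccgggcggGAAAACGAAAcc

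Genes on the aryl hydrocarbon receptor list were lower as well. All 5 tested members were called lower, with a median of −1.71, as were all 5 without GLY replicate 1. Under TMM 2 of them were called lower (64.6% of all tested genes with library totals and 10.1% under TMM). UGT1A6, a glucuronosyltransferase whose last exons are shared by the UGT1A family and whose count is therefore uncertain, had 3.32, 2.19 and 3.76 CPM in GLY replicates 1, 2 and 3, against 16.8, 16.5 and 16.5 CPM in untreated replicates 1, 2 and 3. CYP1A1, the classic target of that receptor, averaged 0.956 ± 0.145 CPM in GLY libraries and 3.13 ± 0.672 CPM in untreated libraries, and AHRR, its repressor, 16.5 ± 2.43 CPM in GLY libraries and 44 ± 7.57 CPM in untreated libraries (SD, n = 3 each). Neither call held under TMM (−0.58 and −0.27). ABCG1, which exports cholesterol, had 0.85, 1.17 and 1.31 CPM in GLY replicates 1, 2 and 3, against 9.49, 8.26 and 16.2 CPM in untreated replicates 1, 2 and 3 and no overlap between groups (log2 fold change −3.34, SE 0.37, edgeR adjusted p = 4.1e-05). Cholesterol synthesis and uptake genes had 5 of 5 tested members lower, 4 without GLY replicate 1 and 0 under TMM. Only 2 were called lower without untreated replicate 3, and 3 without GLY replicate 2. Of the fatty acid synthesis list, 2 of 6 tested members were called higher and 4 lower, with a median log2 fold change of −1.13. The counts were 2 higher and 4 lower without GLY replicate 1, and 2 higher and 1 lower under TMM, and the lower calls numbered 2 without untreated replicate 3. The members called higher were ELOVL1, a fatty acid elongase, at 1.06 and FADS3, of the fatty acid desaturase family, at 1.11. SLC7A8, a transporter of neutral amino acids, had 69.7, 66.1 and 61.8 CPM in GLY replicates 1, 2 and 3, against 417, 434 and 633 CPM in untreated replicates 1, 2 and 3. SYK, a tyrosine kinase, and EPAS1, the hypoxia-inducible factor HIF-2 alpha, were chosen after their values were seen for their loss in level. SYK averaged 154 ± 34.8 CPM in GLY libraries and 917 ± 193 CPM in untreated libraries (SD, n = 3 each), and EPAS1 had a log2 fold change of −2.54, or −1.91 without untreated replicate 3. The clock genes split: ARNTL (1.72) and NFIL3 (1.70) were higher and DBP, an output of the clock, was lower (−2.18, and −0.97 under TMM, where the call is lost).

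Cell division genes were lower relative to library totals, and most of their calls were lost under TMM. Over all tested genes 64.6% were called lower, or 10.1% under TMM, and the counts below are to be read against these shares. PCNA, the sliding clamp of DNA polymerases, stood at 56.2, 84.6 and 105 CPM in GLY replicates 1, 2 and 3, against 313, 307 and 470.3 CPM in untreated replicates 1, 2 and 3. E2F2, an activator of S phase genes, had 2.87, 1.67 and 2.92 CPM in GLY replicates 1, 2 and 3, against 12.1, 12.7 and 16.4 CPM in untreated replicates 1, 2 and 3. Of the G1 to S list, 0 of 19 tested members were called higher and 19 lower, with a median log2 fold change of −1.37. The counts were 0 higher and 19 lower without GLY replicate 1, and 0 higher and 4 lower under TMM. KIF20A, a kinesin of cytokinesis, had 9.79, 15.1 and 26.7 CPM in GLY replicates 1, 2 and 3, against 105, 109 and 158 CPM in untreated replicates 1, 2 and 3. Of the G2 to M list, 0 of 25 tested members were called higher and 25 lower, with a median log2 fold change of −1.46. The counts were 0 higher and 25 lower without GLY replicate 1, and 0 higher and 3 lower under TMM. CCNB1, cyclin B1, averaged 89.6 ± 9.57 CPM in GLY libraries and 219.5 ± 19.4 CPM in untreated libraries (SD, n = 3 each), and its call was lost under TMM (−0.14). Similar counts came from replication fork genes (14 of 14 lower, median −1.08, 2 lower under TMM), kinetochore genes (13 of 13, −1.43, 2), cohesin and condensin genes (11 of 11, −1.16, 1), and genes of homologous recombination (10 of 10, −1.55, 4). Without GLY replicate 1 all members of these lists were still called lower. Their medians were then −0.92, −1.17, −0.87 and −1.14 in the same order, against −1.06 over all tested genes. ORC1, a subunit of the origin recognition complex, had 9.88, 10.02 and 10.6 CPM in GLY replicates 1, 2 and 3, against 35.4, 35.6 and 37.6 CPM in untreated replicates 1, 2 and 3. UHRF1, which guides maintenance methylation of DNA, was at −2.26. The median of all tested genes was −1.15. CDKN1A, an inhibitor of cyclin-dependent kinases, was higher at 320.2, 217 and 226 CPM in GLY replicates 1, 2 and 3, against 81.5, 86.4 and 63.9 CPM in untreated replicates 1, 2 and 3, and GADD45A, a growth arrest gene, was at 2.26.

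Promoters of 2 cell division genes are shown because sites of the cell cycle factors known to act on such genes were searched. E2F2 carries an E2F site, searched as TTTC or TTTG followed directly by GCGC on both strands (GRCh38.p14, chr1:23531234-23531483, minus strand). TOP2A, which encodes DNA topoisomerase II alpha and was chosen after its values were seen (67, 160.3 and 189.5 CPM in GLY replicates 1, 2 and 3, against 471, 442 and 425 CPM in untreated replicates 1, 2 and 3; log2 fold change −1.68, a call lost under TMM), carries the cell cycle homology region, TTTGAA or TTCGAA, and the CCAAT box, both searched on both strands (chr17:40417897-40418146, minus strand). Matches are in capitals in the 250 bases before each start.
E2F2 promoter: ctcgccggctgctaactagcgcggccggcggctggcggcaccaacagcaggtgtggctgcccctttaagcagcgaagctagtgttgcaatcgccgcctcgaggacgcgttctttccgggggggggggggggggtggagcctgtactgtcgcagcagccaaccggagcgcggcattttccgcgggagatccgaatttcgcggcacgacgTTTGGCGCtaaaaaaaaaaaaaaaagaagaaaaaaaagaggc
TOP2A promoter: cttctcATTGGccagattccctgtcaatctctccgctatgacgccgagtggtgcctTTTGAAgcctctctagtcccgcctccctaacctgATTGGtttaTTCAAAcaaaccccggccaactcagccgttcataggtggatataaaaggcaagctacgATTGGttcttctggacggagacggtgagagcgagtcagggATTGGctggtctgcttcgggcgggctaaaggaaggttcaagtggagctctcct
The E2F letters were found in 6 of 15 G1 to S genes with an entry (40.0%), in 3.14% of genes called lower, in 0.596% of genes called higher and in 1.40% of all genes of the RefSeq table. Counted per window, the shares were 2.20% for lower genes, 0.381% for higher genes and 1.15% for all genes. The cell cycle homology letters, which are short and common, were found in 16 of 21 G2 to M genes (76.2%), in 20.8% of genes called lower, in 15.7% of those called higher and in 19.5% of all genes. Counted per window, the last 3 shares were 15.7%, 11.6% and 16.4%, so the letters do not set lower genes apart from all genes. The CCAAT box was in 17 of 21 G2 to M genes (81.0%), but also in 11 of 12 unfolded protein response genes (91.7%). It was in 47.2% of genes called lower, 43.1% of those called higher and 39.7% of all genes.

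Genes of guidance, Eph and fibroblast growth factor signalling were also tested. SEMA7A, a membrane-anchored semaphorin, rose to 45.6, 37.6 and 25.4 CPM in GLY replicates 1, 2 and 3, against 4.69, 4.38 and 3.15 CPM in untreated replicates 1, 2 and 3. ROBO4, a receptor known from endothelium, was at 4.81, and SEMA3A, a secreted semaphorin, at −4.28 (−3.54 without untreated replicate 3). The guidance list split evenly: 8 of 16 tested members were called higher and 8 lower, with a median log2 fold change of 0.02. Shares over all tested genes were 19.7% and 64.6%, or 23.7% and 10.1% under TMM. The counts were 8 higher and 8 lower without GLY replicate 1, and 8 higher and 3 lower under TMM. All 7 tested Eph and ephrin genes were lower (median −1.47), as were all 7 without GLY replicate 1. Under TMM 1 of them was called lower, against 64.6% of all tested genes with library totals and 10.1% under TMM. EFNB3, an ephrin ligand, averaged 1.16 ± 0.374 CPM in GLY libraries and 6.21 ± 2.71 CPM in untreated libraries (SD, n = 3 each). The fibroblast growth factors FGF19 (−1.82), FGF9 (−1.92) and FGF18 (−2.15) were lower. TNFRSF11B, the decoy receptor osteoprotegerin, was among the largest decreases, with 0.0945, 0.468 and 0.704 CPM in GLY replicates 1, 2 and 3, against 29.1, 28.4 and 66.9 CPM in untreated replicates 1, 2 and 3 (log2 fold change −6.60, SE 0.65, edgeR adjusted p = 2.25e-05). The remaining genes with the largest decreases were EDN3, the peptide endothelin 3, at −6.83, NCALD, a neuronal calcium sensor, at −5.30, PLPPR4, a neuronal membrane protein, at −5.10, NXPH3, a neurexin ligand, at −5.00, and KCNJ10, a potassium channel, at −4.90. SALL2, a zinc finger factor, was at −4.39, NEURL1B, a ubiquitin ligase, at −4.31 and DACH1, a transcriptional regulator, at −4.07. Without untreated replicate 3, EDN3 was at −5.17, PLPPR4 at −3.92 and DACH1 at −3.28, and without GLY replicate 1 NXPH3 was at −6.09. These genes stayed lower whichever library was left out. Of the largest increases not yet given, DIRAS3 and GEM, both small GTPases, were at 3.78 and 3.25, COL6A2, a chain of collagen VI, at 3.53, PAK6, a kinase, at 3.34, ACP7 at 3.51 and ARL14EPL at 3.71. Without GLY replicate 3, ARL14EPL was at 1.99, DIRAS3 at 2.77 and GEM at 2.63. TRPV6, an epithelial calcium channel, was higher (27.8 ± 8.38 CPM in GLY libraries and 4.16 ± 0.757 CPM in untreated libraries; SD, n = 3 each).

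**Figure D4:**
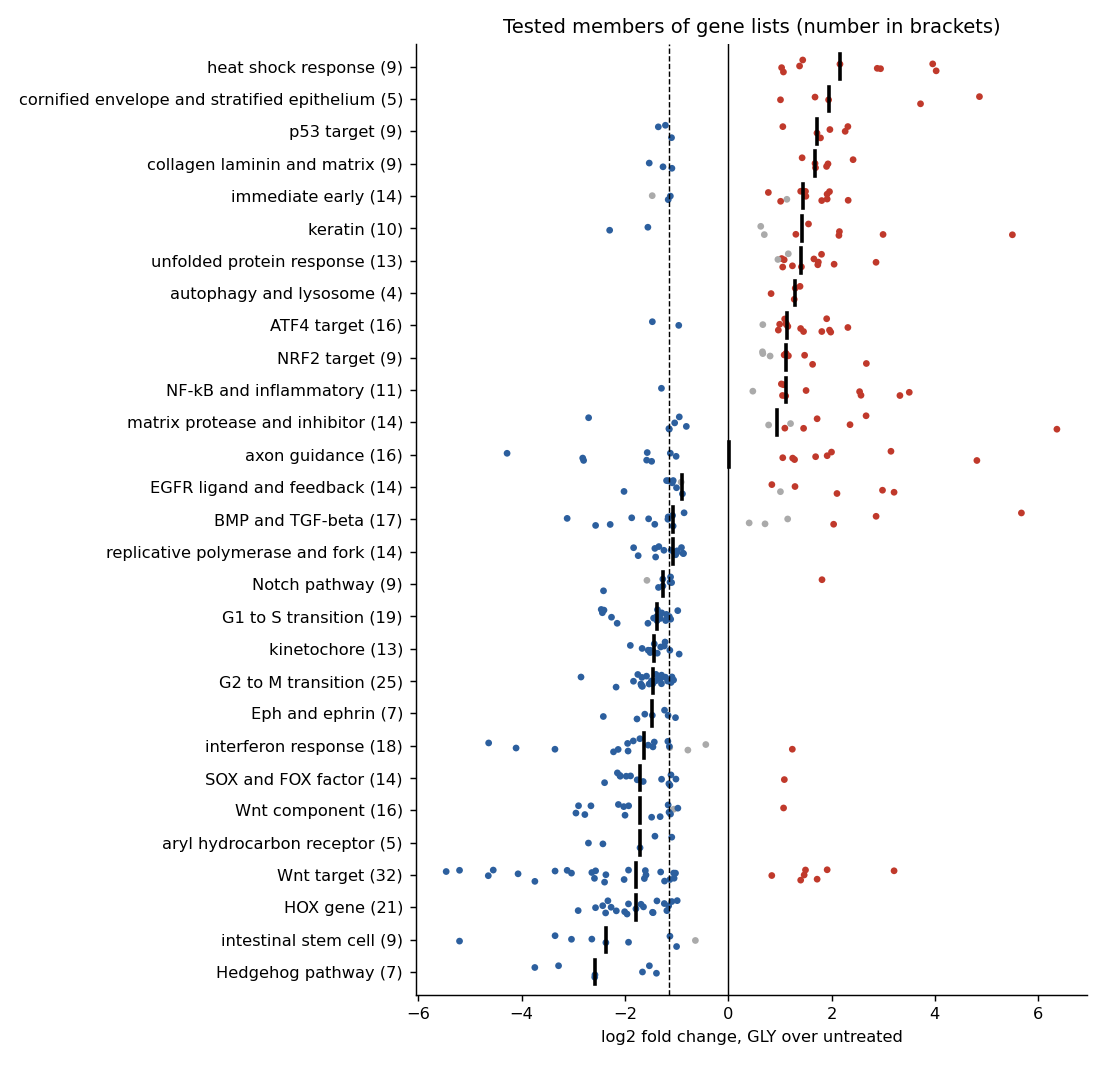
Log2 fold change of GLY over untreated (x axis) for each tested member (points; red, called higher; blue, called lower; grey, not called) of selected gene lists (y axis, with the number tested), with a thick bar at each list's median. The solid line marks 0 and the dashed line the median of all tested genes, −1.15; heat shock genes lie to the right of 0 and Hedgehog genes to the left.

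Markers of other cell types were nearly absent from the table. Of 11 fibroblast markers 1 was tested, PDGFRB at 1.38; of 11 endothelial markers 1, ROBO4; and of 13 leukocyte markers 2, 1 higher and 1 lower. Of 13 colorectal epithelium markers 3 were tested, CDX2, VIL1 and CLDN4. Of 28 splicing factors and 28 ribosome biogenesis genes, 0 were among the tested genes. A gene that is not in this table was not analysed here.

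Calls followed base composition and gene length. With all libraries, the share called higher was 8.79% in the lowest of 5 equal classes of transcript GC and 27.4% in the highest. Without GLY replicate 1 these shares were 11.7% and 23.0%. The median log2 fold change ran from −1.22 to −1.03 over the GC classes with all libraries, and from −0.88 to −1.25 without GLY replicate 1, so that library sets the direction of that trend. Genes called higher had a median genomic span of 23.1 kb and those called lower of 35.6 kb. In the class of shortest span 24.8% were called higher, against 13.2% in the class of longest span, and without GLY replicate 1 the shares were 22.1% and 16.8%. The median over the span classes went from −1.04 to −1.25 with all libraries and from −1.20 to −0.97 without GLY replicate 1. The part of library quality in these trends was not tested.

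Of the called genes averaging a log2 CPM of 3 or more, those that moved most when GLY replicate 1 was left out were HES7, BCAM, SLC27A3, PARP10 and BLOC1S1. HES7, a Notch-regulated repressor, had 82.8, 40.5 and 19 CPM in GLY replicates 1, 2 and 3, against 16.3, 17.7 and 6.41 CPM in untreated replicates 1, 2 and 3. GLY replicate 1 was the highest library, and the log2 fold change of 1.81 became 1.14 without it, with the call lost (adjusted p = 0.0527). BCAM, a laminin-binding adhesion molecule, had 16.6, 8.85 and 2.49 CPM in GLY replicates 1, 2 and 3, against 47.1, 49.95 and 38.2 CPM in untreated replicates 1, 2 and 3, and its log2 fold change was −2.99 without GLY replicate 1 and −2.27 with it. SLC27A3, a fatty acid transport protein, gave −1.99 without the library where it gave −1.32 with it, and BLOC1S1, a subunit of a lysosome biogenesis complex, gave −2.16 and −1.55. PARP10, a mono-ADP-ribosyltransferase, stood at −1.61 without the library and −0.97 with it, and at 0.27 under TMM. Its call was also lost without GLY replicate 2 (−0.77) or 3 (−0.70) and without untreated replicate 2 (−0.86). Under TMM the calls of BCAM, SLC27A3 and BLOC1S1 were lost too.

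The response to GLY was measured a second time in libraries that share none with the first: GLY_PUE against PUE. In that comparison 2669 genes were called (77.8%), 705 higher (20.6%) and 1964 lower (57.3%). Of the 674 genes higher with GLY alone, 617 were also higher there (91.5%), and of the 2216 lower genes 1834 were also lower (82.8%). The authors' comparisons by which genes entered the table include GLY_PUE against PUE. These shares are therefore in part set by the choice of genes. Both comparisons also come from 1 fit scaled by library totals, on which the split by direction rests. KRT16 had a log2 fold change of 5.50 with GLY alone and 5.58 in the presence of PUE, HSPA5 2.86 and 2.83, IL11 3.50 and 3.35, and APCDD1 −4.64 and −4.64. HOXC6 had −2.43 and −2.30, PTCH1 −3.28 and −2.84, and OAS2 −3.35 and −3.56. All 21 HOX genes were lower with GLY alone and 20 in the presence of PUE. TDRD10 and CORO7-PAM16 were called in opposite directions, and both are low: TDRD10 averaged 0.199 ± 0.0178 CPM in GLY and 0.440 ± 0.0421 CPM in untreated libraries (SD, n = 3 each), and CORO7-PAM16, a read-through symbol, had 0 counts in every GLY library against 183 summed over the untreated ones. In the other comparison CORO7-PAM16 had 0, 2.31 and 0.00568 CPM in GLY_PUE replicates 1, 2 and 3, against 0 in every PUE library, so its opposite call rests on 1 library. The difference between the 2 effects, tested as an interaction in edgeR, passed in 0 of 3429 genes. Without adjustment 33 genes had p under 0.05, and with DESeq2 the counts were 0 adjusted and 22 unadjusted. Both unadjusted counts are fewer than a threshold of 0.05 would pass in 3429 tests with no difference at all. The test was thus conservative here, and 0 calls do not show that the 2 effects are equal. The 95% interval of that difference lay within 1 log2 unit either way in 845 genes (24.6%), so for the other genes a difference of that size remains possible.

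**Figure D5:**
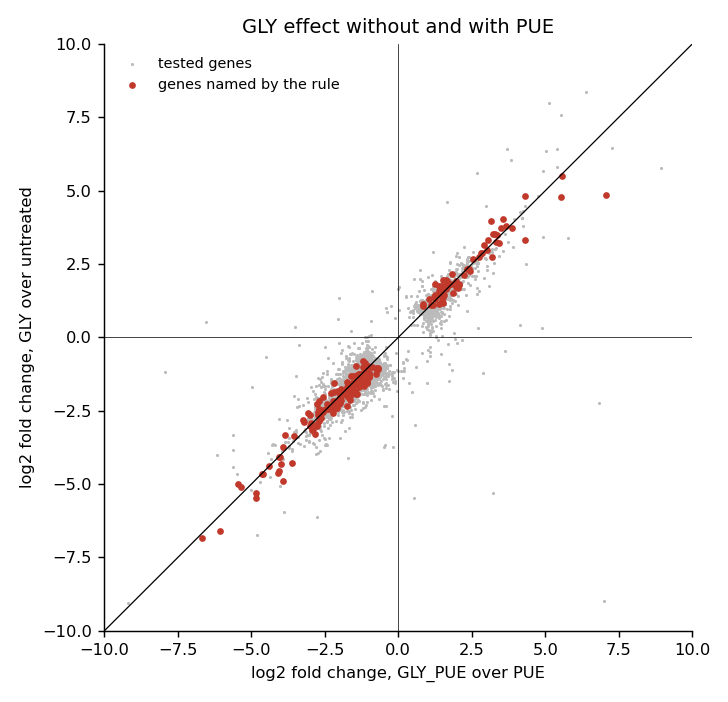
Log2 fold change of GLY over untreated (y axis) against that of GLY_PUE over PUE (x axis) for the 3429 tested genes (grey) and the genes named by the rule (red), with the line of equal values. The comparisons share no library. Most named genes lie close to the line, with KRT16 at 5.50 and 5.58 and APCDD1 at −4.64 in both.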

How the data were processed

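RNA-seq of SW480 cells was read from 1 deposited table with 12 libraries, 3 in each of the groups GLY, untreated, GLY_PUE and PUE. The read counts deposited by the authors are expected counts in form: only 58.2% are whole numbers (within 1e-09) and the others carry decimals. They were rounded here. The authors' Expression column has no unit in the file headers and behaves as FPKM, although TPM would look alike. The deposited log2 ratios and q-values come from the authors' own comparisons and served only to describe how genes were selected. The submitters' processing notes list TopHat and DESeq 1.32.0 with no role. The program that counted reads, its genome build and gene models, and its use of strand, were not given in the sources used here.

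Relative library totals were recovered from the median ratio of count to Expression over 625 genes (100 counts and an Expression of 5 or more), and the absolute total from 39 genes with a single transcript in GENCODE 29. Totals were 19.7 to 21.4 M reads. Counts were fitted with edgeR 4.0.16 (R 4.3.3; robust quasi-likelihood, all 12 libraries, 4 groups, recovered totals as library sizes, filterByExpr) and p-values adjusted by Benjamini-Hochberg over 3429 genes, with a threshold of 0.05. Any edgeR adjusted p in the text comes from this fit. CPM values are counts scaled to the recovered total. DESeq2 1.42.0, limma-voom 3.58.1, TMM and RLE scaling, other filters, a replicate block, a GC correction and leaving out libraries were the alternatives. The fit without GLY replicate 1 under TMM and the block without GLY replicate 1 were added after seeing the data.

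Named genes were the 15 called genes that rose most and the 15 that fell most (average log2 CPM at least 1, groups apart, call kept without GLY replicate 1), the 3 called members of each list with the smallest p where at least 3 were tested, and the 5 called genes (log2 CPM averaging 3 or more) that shifted most without GLY replicate 1. This gave 213 genes, of which only a part is described in the text, and a few are not reported here. Genes outside the rule are marked where they appear; KRT6B, KRT83, ISG20, HOXA6, HOXA9, HOXB6, HOXC10, HOXC13, NOG, INHBA, DKK1, FADS3, PDGFRB, TDRD10 and CORO7-PAM16 were also named after their values were seen. Members, lists and motifs were chosen with earlier results of these data known. Promoter sequences are from RefSeq, GRCh38.p14. The pipeline was tested on simulated data.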

Additional observations from a re-analysis of the deposited data

How the results depend on the processing

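The total of 2890 called genes changed most with scaling: TMM gave 1158 calls, 346 of them lower, RLE gave 1188 with 378 lower, and TMM without GLY replicate 1 gave 1349 with 528 lower. Leaving out 1 library gave 2406 to 2853 calls, 584 to 688 higher and 1822 to 2165 lower. With the libraries numbered 3 left out of every group there were 2459 calls, 569 higher and 1890 lower. The interaction passed in 0 to 1 genes when 1 library was left out, the 1 being without GLY_PUE replicate 2. Of 222 named genes, 149 kept their call and direction under TMM, 62 lost the call and 11 changed sign, and with RLE these were 151, 62 and 9. Without GLY replicate 1, 220 kept their call and 2 lost it, and without the libraries numbered 3 in every group 213 kept it and 9 lost it. DESeq2 gave the same call for the 221 genes it tested and limma-voom for all 222.

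The genes that changed sign were lower with library totals and took these log2 fold changes. Under TMM they were 0.064 for MSH6, 0.20 for H2AFX, 0.043 for ARID1B, 0.023 for SLC16A1, 0.12 for CTPS2, 0.43 for TK1, 0.21 for TGFBI, 0.35 for TGFB1, 0.022 for CEBPD, 0.17 for KCNH2 and 0.27 for PARP10. Under RLE they were 0.016 for MSH6, 0.13 for H2AFX, 0.00076 for ARID1B, 0.064 for CTPS2, 0.35 for TK1, 0.14 for TGFBI, 0.27 for TGFB1, 0.10 for KCNH2 and 0.18 for PARP10. Under TMM without GLY replicate 1 they were 0.044 for IDI1, 0.20 for MSH6, 0.0078 for NIN, 0.27 for ARID1B, 0.048 for CDK8, 0.26 for SLC16A1, 0.036 for CTPS2 and 0.089 for NOTCH1. Both scalings centre the listed genes by construction.

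With the replicate number as a block (replicate block) 3086 genes were called, 714 higher and 2372 lower. Same-numbered GLY and untreated libraries had deviations correlated at 0.17, 0.04 and 0.41 for replicates 1, 2 and 3. GLY replicates 1 and 2 correlated best with untreated replicates 2 and 1, at 0.28 and 0.12. GLY replicate 3 correlated best with untreated replicate 3, and at −0.35 and −0.44 with untreated replicates 1 and 2. The numbers thus matched for replicate 3 only. The labels state no pairing, so the main fit used no block, and whether libraries numbered 3 share a batch was not tested. Depth limits genes near 0.152 CPM, where fold changes rest on few counts.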
